A study of Mus musculus with 3 samples.

Results

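The ligand Bmp4, the protease Bmp1, the BMP type I receptors Bmpr1a, Acvr1 and Acvrl1, the type II receptors Bmpr2 and Acvr2a, and the signal transducers Smad1, Smad5 and Smad4 were measured by RNA-seq in C2C12 cells. These 10 genes were taken by name from 22706 genes in all, and 9 of them, all but Acvrl1, reached 1 FPKM in at least 1 library. C2C12 is a mouse line, derived from muscle, that fuses into myotubes at low serum and takes an osteoblast path when BMP2 is added. There were 3 libraries, 1 in each group. The library labelled shKSRP came from cells transfected with shKSRP, given as a KSRP knockdown, in growth medium (DMEM with 20% FBS) and without agent. The BMP2 library came from mock-transfected cells, titled as differentiation medium plus BMP2, and the treatment notes give 2% horse serum for that medium and 100 to 300 ng/ml for BMP2. The mock library came from cells that were mock-transfected, without agent and in growth medium. Medium and BMP2 therefore differed together between BMP2 cells and mock cells, and their parts cannot be told apart. The time in BMP2 is not settled by the labels.

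BMP ligands are secreted proteins of the TGF-beta superfamily. They bind type I and type II receptor kinases, the type II receptor activates the type I receptor, and the type I receptor phosphorylates SMAD1 and SMAD5, which enter the nucleus with SMAD4 and act on genes such as Id1. In C2C12 cells BMP2 is known to halt muscle differentiation and to switch on osteoblast genes. Bmp1, despite its name, codes for a metalloprotease of the tolloid family that trims procollagens and cleaves the BMP antagonist chordin. KSRP, the product of Khsrp, binds AU-rich elements in mRNA and promotes decay of the bound transcripts.

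Abundance is given in FPKM, fragments per kilobase of transcript scaled for depth, summed over the RefSeq and assembled transcripts of a gene. The ± after a level is the distance to the upper bound of the authors' 95% intervals. It covers counting and assignment error within 1 library only. With 1 library a group there is no replicate check and no test, and a gene was called higher or lower where its log2 ratio of FPKM + 1 reached 1 in size. The bounds imply about 68500000 fragments in the library labelled shKSRP, 60400000 fragments in the BMP2 library and 62100000 fragments in the mock library. Khsrp, the gene named by the knockdown, was at 28.4 ± 0.64 FPKM in the library labelled shKSRP, 27.1 ± 0.67 in the BMP2 library and 31.4 ± 0.85 in the mock library. Its log2 ratio was −0.14 in the library labelled shKSRP, smaller in size than the −0.20 of the BMP2 library, so Khsrp does not single out the library labelled shKSRP. Log2 ratios of all genes moved with transcript length: in the library labelled shKSRP against mock their median was −0.42 for 3539 genes under 2000 nt and 0.46 for 1177 genes of 6000 nt or more.

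All 6 myoblast markers were detected, with a sum of 446 FPKM in the library labelled shKSRP, 313 in the BMP2 library and 459 in the mock library. Within that sum Myf5, a myogenic factor gene, was at 48.4 FPKM in the library labelled shKSRP, 9.09 in the BMP2 library and 7.75 in mock. It was called higher in the library labelled shKSRP. Des, the most abundant of the markers, was at 185 FPKM in the library labelled shKSRP, 218 with BMP2 and 280 in mock. Cdh15 was at 31.1 FPKM in the library labelled shKSRP, 5.02 with BMP2, where it was called lower, and 38.3 in mock. Des and Cdh15 lay below mock in the library labelled shKSRP, and the other myoblast markers above it. The 5 myotube markers summed to 70.0 FPKM in the library labelled shKSRP, 89.1 with BMP2 and 46.0 in mock. In the library labelled shKSRP Acta1 (45.5 FPKM, 27.9 in mock) and Mymk (17.6, 6.58 in mock, called higher) lay above mock. Myog (6.52, 9.54 in mock), Myh3 (0.168, 1.34 in mock, called lower) and Ckm (0.222, 0.622 in mock) lay below it. Myh3, at a log2 ratio of −1.003, shares its locus with another gene. The 6 osteoblast markers summed to 34.6 FPKM in the library labelled shKSRP, 109 in the BMP2 library and 34.9 in mock. The near-equal sums of the library labelled shKSRP and mock held opposite differences: the collagen gene Col1a1 was at 15.7 FPKM in the library labelled shKSRP, 31.9 with BMP2 and 2.88 in mock, and the osteocalcin gene Bglap2, which shares its locus with another gene, at 4.29 FPKM in the library labelled shKSRP, 42.98 with BMP2 and 23.2 in mock. Ibsp, a late osteoblast gene, was listed at 0 in all 3 libraries. Sums over 6 endothelial, 4 epithelial and 3 adipocyte markers stayed at or below 0.123, 0.345 and 5.17 FPKM in every library. The adipocyte marker Fabp4 was called higher with BMP2, at 5.10 FPKM against 0.613 in mock. The sum of 4 blood markers lay between 10.9 and 14.5, with Cd34 the highest of them. Cd34 was at 4.67 FPKM in the library labelled shKSRP, 11.8 with BMP2 and 9.93 in mock. Lyz2 was at 3.98 FPKM in the library labelled shKSRP, where it was called higher, 1.83 with BMP2 and 0.599 in mock. Hba-a1 was at 2.25, 0.921 and 2.76 FPKM in the same order. The pan-leukocyte gene Ptprc stayed at or below 0.0060. The part of cell composition in the results below was not tested, and in bulk RNA fewer cells of a type and less RNA per cell cannot be told apart.

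Of the 9 genes that passed the filter, 8 in the library labelled shKSRP and 6 with BMP2 lay within the fold used of mock. In the library labelled shKSRP 1 of the 9, Acvr2a, was called higher than mock, where 11.0% of all 11462 genes tested were, and none was called lower, where 12.9% were. In the BMP2 library 3 of the 9, Bmp4, Acvr1 and Acvr2a, were called higher than mock, where 9.21% of all genes were, and none was called lower, where 8.95% were. Acvr2a is listed at 0 in mock, so its calls rest on that entry. The median log2 ratio of the 9 genes against mock was 0.29 in the library labelled shKSRP and 0.26 with BMP2, and over all genes tested it was −0.02 and 0.03. Corrected for transcript length, the median of the 9 was −0.08 in the library labelled shKSRP, with 4 of 9 above 0, and 0.06 with BMP2. With RefSeq transcripts alone it was 1.39 in the library labelled shKSRP and 1.56 with BMP2, over 8 genes.

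**Figure D1:**
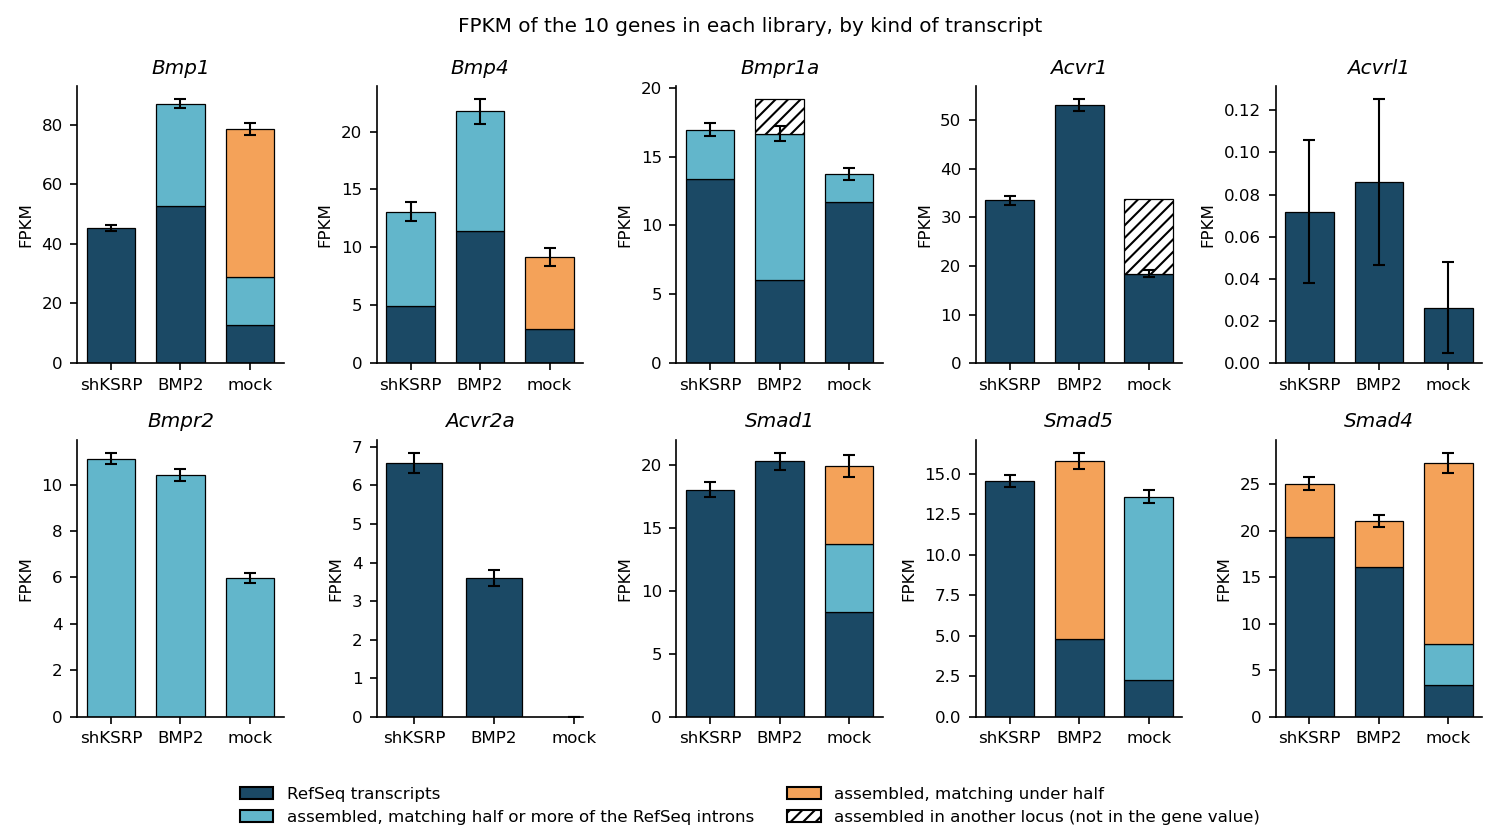
Level of each of the 10 genes in FPKM (vertical axes, each from 0) in the library labelled shKSRP, the BMP2 library and the mock library, 1 bar each, split by kind of transcript; error bars are the distance to the authors' 95% bounds and hatched parts are not in the gene value. Bmp4 and Acvr1 are highest in the BMP2 library, Bmp1 is lowest in the library labelled shKSRP, and the mock bars of Bmp1, Bmp4, Smad1 and Smad4 hold pieces that match under 50% of the RefSeq introns.

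Bmp1 was the most abundant of the 10 genes in every library. In the library labelled shKSRP, Acvr1, Smad4, Smad1, Bmpr1a, Smad5, Bmp4, Bmpr2, Acvr2a and Acvrl1 followed in falling order, and no neighbours had overlapping intervals. In the BMP2 library the order after Bmp1 was Acvr1, Bmp4, Smad4, Smad1, Bmpr1a, Smad5, Bmpr2, Acvr2a and Acvrl1, and the intervals of Bmp4 and Smad4, Smad4 and Smad1, and Bmpr1a and Smad5 overlapped. In mock the order after Bmp1 was Smad4, Smad1, Acvr1, Bmpr1a, Smad5, Bmp4, Bmpr2, Acvrl1 and Acvr2a, and the intervals of Smad1 and Acvr1 and of Bmpr1a and Smad5 overlapped. Acvr1 thus came next after Bmp1 in both libraries other than mock, and below Smad4 and Smad1 in mock. With a single-exon piece of its last exon counted, Acvr1 was at 33.8 FPKM in mock and came next after Bmp1 there too.

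Bmp4 (mm9, chromosome 14, 47003196 to 47010274, minus strand) codes for a ligand that signals through the receptors described here. It was at 13.1 ± 0.79 FPKM in the library labelled shKSRP, 21.7 ± 1.06 in the BMP2 library and 9.15 ± 0.77 in mock. The BMP2 library was highest and mock lowest, and no intervals overlapped. The log2 ratio to mock was 0.47 ± 0.14 in the library labelled shKSRP and 1.16 ± 0.13 with BMP2. The call in the BMP2 library was kept in 13 of 14 alternative settings and lost with a pseudocount of 5 FPKM, where the ratio was 0.92. Not every setting could move it, as dropping the filter on low values cannot change a ratio. Requiring exon overlap and counting assembled transcripts of other loci also returned the reported ratio for Bmp4. It has a single RefSeq transcript, so both settings with RefSeq transcripts alone gave 1.64, and both fixed-length settings gave 1.33. The count of settings therefore overstates how far the call was tested. The RefSeq transcript alone was at 4.96 FPKM in the library labelled shKSRP, 11.4 in the BMP2 library and 2.98 in mock, and the rest lay on assembled forms of 2 to 4 exons at the same locus.

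Other ligand genes were close to silent. Of 15 further BMP and GDF genes Bmp2 alone passed the filter, and the other 14 stayed below 1 FPKM in every library. Bmp2 itself was listed at 0 in the library labelled shKSRP and was at 1.22 ± 0.20 FPKM in the BMP2 library and 0.36 ± 0.10 in mock. Of 401 tested genes listed at 0 in the library labelled shKSRP, 312 are marked as supported by reads over their full length. Its log2 ratio of 0.70 in the BMP2 library against mock did not reach the fold used. The BMP2 added to the medium was a recombinant protein and is not measured by RNA.

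Bmp1 (mm9, chromosome 14, 70874362 to 70920067, minus strand) was at 45.2 ± 0.95 FPKM in the library labelled shKSRP, 87.0 ± 1.47 in the BMP2 library and 78.4 ± 2.02 in mock. The library labelled shKSRP was lowest and no intervals overlapped. The log2 ratio to mock was −0.78 ± 0.05 in the library labelled shKSRP and 0.15 ± 0.04 with BMP2, neither past the fold used. The transcripts behind the value differed between libraries. In mock 49.7 FPKM, 63.4% of the gene, came from an assembled transcript of 6 exons and 1367 nt at the 3′ end. In the library labelled shKSRP all of it lay on the 2 RefSeq transcripts, with 26.2 FPKM on the form of 3759 nt and 19.0 on the form of 4454 nt. The longer form is a noncoding record in RefSeq. The coding form of 3759 nt was at 41.0 FPKM in the BMP2 library and 12.8 in mock. On that form alone mock was lowest, but this leaves out the assembled transcripts. Counted as fragments over one fixed length, Bmp1 was at 41.1 FPKM in the library labelled shKSRP, 80.5 in the BMP2 library and 41.8 in mock, with log2 ratios to mock of −0.02 in the library labelled shKSRP and 0.93 with BMP2.

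Partners of Bmp1 were unequal. Pcolce and Pcolce2 code for enhancers of procollagen C-proteinase, the activity of Bmp1. Pcolce2 was at 11.6 FPKM in the library labelled shKSRP, 85.1 in the BMP2 library and 72.2 in mock, and was called lower in the library labelled shKSRP with a log2 ratio of −2.54. Pcolce, which shares its locus with another gene, was at 397 FPKM in the library labelled shKSRP, 508 with BMP2 and 452 in mock and was not called. The tolloid-like proteases Tll1 and Tll2 stayed below the filter, which left 2 of the 4 genes of this list tested. Among 4 proprotein convertases, which cut BMP precursors into active ligands, 3 were tested. Furin was at 29.95 FPKM in the library labelled shKSRP, 20.99 in the BMP2 library and 15.0 in mock. Pcsk7 was at 12.9 FPKM in the library labelled shKSRP and listed at 0 in the BMP2 library and in mock, so its difference rests on those entries. Of tested genes listed at 0, 249 of 321 in the BMP2 library and 219 of 306 in mock are marked as supported by reads over their full length.

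Of the 2 type I receptors tested, Acvr1 was called higher in the BMP2 library and Bmpr1a was not called. Acvr1 (mm9, chromosome 2, 58298849 to 58419239, minus strand) codes for a BMP and activin receptor kinase whose activating mutations cause bone to form in muscle in people. It was at 33.5 ± 0.93 FPKM in the library labelled shKSRP, 53.1 ± 1.23 in the BMP2 library and 18.4 ± 0.77 in mock. No intervals overlapped, and mock was lowest. The log2 ratio to mock was 0.83 ± 0.07 in the library labelled shKSRP and 1.48 ± 0.07 with BMP2. In all 3 libraries most of it lay on the RefSeq transcript of 11 exons, with 27.6 FPKM in the library labelled shKSRP, 45.3 in the BMP2 library and 15.5 in mock. The transcript of 12 exons was at 5.86 FPKM in the library labelled shKSRP, 7.82 with BMP2 and 2.91 in mock, and that of 13 exons was listed at 0 in all 3.

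The size of the Acvr1 difference depends on a piece of its last exon. Mock alone also held a single-exon assembled transcript of 1486 nt, with no strand and in a locus of its own, at 15.4 FPKM, on that exon and running into the intron beside it. With it counted, mock stood at 33.8 FPKM over the last 1236 nt. The log2 ratio then was −0.01 in the library labelled shKSRP and 0.64 with BMP2, or 0.33 for the first and 0.97 for the second with fragments over a fixed length, so the call in the BMP2 library was lost. Over the preceding 1402 nt, which that piece does not cover, the summed levels are 33.5 FPKM in the library labelled shKSRP, 53.1 in the BMP2 library and 18.4 in mock. These are the RefSeq sums again by construction, as each transcript carries a single FPKM along its length. They are not a separate measurement of the difference. Such pieces raised at least 1.5-fold 0.611% of all genes tested in the library labelled shKSRP, 1.396% in the BMP2 library and 1.82% in mock.

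Bmpr1a (mm9, chromosome 14, 35224254 to 35315732, minus strand), a main type I receptor for BMP2 and BMP4, was at 17.0 ± 0.48 FPKM in the library labelled shKSRP, 16.7 ± 0.55 in the BMP2 library and 13.7 ± 0.44 in mock. The intervals of the library labelled shKSRP and the BMP2 library overlapped, and mock lay below both. The BMP2 library alone also held a single-exon assembled transcript of 4448 nt on this gene, in a locus of its own, at 2.52 FPKM. With it counted Bmpr1a was at 19.2 FPKM in the BMP2 library, above the library labelled shKSRP. The log2 ratio to mock was 0.29 ± 0.06 in the library labelled shKSRP and 0.26 ± 0.06 with BMP2, not past the fold used. The RefSeq transcript held 78.9% of the value in the library labelled shKSRP, 36.4% in the BMP2 library and 85.4% in mock, at 13.4 FPKM in the library labelled shKSRP, 6.07 in the BMP2 library and 11.7 in mock. On it alone the log2 ratio to mock was 0.18 in the library labelled shKSRP and −0.85 with BMP2, and that of the library labelled shKSRP to the BMP2 library was 1.03, a call. With the length trend taken out the ratio to mock was −0.08 in the library labelled shKSRP and 0.06 with BMP2. Acvrl1 (mm9, chromosome 15, 100958968 to 100975767, plus strand), known as a receptor of endothelial cells, was near the floor at 0.072 ± 0.034 FPKM in the library labelled shKSRP, 0.086 ± 0.039 in the BMP2 library and 0.026 ± 0.022 in mock. These levels stand for about 18 fragments in the library labelled shKSRP, 19 with BMP2 and 6 in mock, and the 6 endothelial markers were all at or below 0.062 FPKM. A difference in Acvrl1 was not detectable at this depth. The further type I receptor gene Bmpr1b stayed below 1 FPKM in every library.

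Promoters are printed for Bmp4 and Acvr1, the ligand and the receptor called higher in the BMP2 library from levels above 0 in both libraries. They run from 250 bases before to 50 bases after the start in the RefSeq table of GRCm38.p6, on the gene's strand, 5′ to 3′. Capitals mark GGAGCC or its reverse complement GGCTCC, a sequence known to be bound by BMP SMADs. Acvr1 lies at chr2:58566779-58567078 and Bmp4 at chr14:46390620-46390919, both on the minus strand.
Acvr1: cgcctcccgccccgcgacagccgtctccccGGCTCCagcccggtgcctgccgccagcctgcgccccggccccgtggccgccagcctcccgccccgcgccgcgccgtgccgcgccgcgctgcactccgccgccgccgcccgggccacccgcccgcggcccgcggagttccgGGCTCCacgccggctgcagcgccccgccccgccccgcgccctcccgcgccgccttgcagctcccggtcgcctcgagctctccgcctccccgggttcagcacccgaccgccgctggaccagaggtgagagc
Bmp4: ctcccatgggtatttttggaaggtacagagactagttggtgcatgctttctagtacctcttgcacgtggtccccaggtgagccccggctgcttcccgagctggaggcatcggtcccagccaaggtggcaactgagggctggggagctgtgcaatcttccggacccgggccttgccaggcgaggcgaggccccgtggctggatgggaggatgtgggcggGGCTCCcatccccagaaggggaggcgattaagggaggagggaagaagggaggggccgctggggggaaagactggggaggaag
The Acvr1 window held 2 matches and the Bmp4 window 1, and 30.8% of 32851 promoters in the table hold at least 1. Both strands were searched, and no match overlapped another motif. Neither window held GGCGCC, found in 11.9% of promoters, or CAGAC or its reverse complement GTCTG, found in 49.6%. Among genes with no such call, GGCGCC was in the Bmpr1a and Bmpr2 windows and in 2 of the 3 Smad5 windows, and the third Smad5 window held 1 match to GGAGCC or GGCTCC and 1 to CAGAC or GTCTG. Promoters were matched for 7 of the 10 genes.

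Both type II receptors had their lowest entry in mock. Bmpr2 (mm9, chromosome 1, 59821481 to 59927703, plus strand), the type II receptor most specific to BMPs, was at 11.1 ± 0.24 FPKM in the library labelled shKSRP, 10.4 ± 0.25 in the BMP2 library and 5.996 ± 0.22 in mock. No intervals overlapped. The log2 ratio to mock was 0.79 ± 0.05 in the library labelled shKSRP and 0.71 ± 0.05 with BMP2, both short of the fold used. The RefSeq transcript of 3507 nt was listed at 0 in every library, and the level lay on assembled transcripts of 11758 to 12824 nt that ran 6724 nt past its 3′ end in the library labelled shKSRP, 8112 nt in the BMP2 library and 8096 nt in mock. The length trend was taken at the RefSeq length of 3507 nt, so no ratio corrected for it is given for Bmpr2.

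Acvr2a (mm9, chromosome 2, 48669629 to 48758784, plus strand), a type II receptor shared by activins and BMPs, was at 6.58 ± 0.26 FPKM in the library labelled shKSRP and 3.61 ± 0.21 with BMP2, and was listed at 0 in mock. In mock the RefSeq transcript is nonetheless marked as supported by reads over its full length. Of 306 tested genes listed at 0 in mock, 219 carry that mark, and no fold against mock is given. In mock alone an assembled transcript of 15 exons given to the neighbouring gene Orc4, on the opposite strand, lay over 3671 bases of the last exon of Acvr2a at 3.82 FPKM. The sources used here do not say whether reads kept their strand, and without it reads of Orc4 and Acvr2a cannot be told apart there. Between the other two libraries, both above 0, the log2 ratio was 0.72 ± 0.08 in the library labelled shKSRP against the BMP2 library. The intervals did not overlap, and the ratio stayed between 0.43 and 0.85 in all 14 alternative settings. Only the pseudocount, scaling and length-trend settings could move it. The value of Acvr2a lies on a single RefSeq transcript, so the other settings return the same ratio by construction.

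AU-rich elements, the kind of sequence that KSRP is known to bind, were searched for as one nonamer. The DNA letters TTATTTATT occur once each in the 3′ untranslated regions of Acvr1, Bmpr2 and Smad5, in the GENCODE M21 annotation of GRCm38, and in none of the other 7 genes. Each site is shown with its flanks, 30 bases on the gene's strand, 5′ to 3′, with the nonamer in capitals.
Acvr1, chr2:58446872-58446901, minus strand: actttgcaaaTTATTTATTactggtgcact
Bmpr2, chr1:59874125-59874154, plus strand: ttaaaaaattTTATTTATTtaatgtatgag
Smad5, chr13:56739085-56739114, plus strand: ttctgtgccaTTATTTATTgcctttcagag
Of 21010 genes with such a region 7.67% hold the nonamer. Among regions of like length it is in 7.92% for Acvr1, 33.7% for Bmpr2 and 21.6% for Smad5. The 3 genes had log2 ratios of 0.83, 0.79 and 0.09 in the library labelled shKSRP against mock, none past the fold used. A match is a description of the letters and not a measured site.

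All 3 SMAD genes lay within 0.36 of mock on the log2 scale. Smad1 (mm9, chromosome 8, 81862298 to 81923367, minus strand) and Smad5 (mm9, chromosome 13, 56804371 to 56843739, plus strand) code for the receptor-regulated SMADs of the BMP branch, and Smad4 (mm9, chromosome 18, 73798667 to 73863395, minus strand) for the common partner. Smad1 was at 18.0 ± 0.59 FPKM in the library labelled shKSRP, 20.3 ± 0.66 in the BMP2 library and 19.9 ± 0.87 in mock. The intervals of the BMP2 library and mock overlapped, and that of the library labelled shKSRP lay just below both. Its log2 ratios to mock were −0.14 ± 0.07 in the library labelled shKSRP and 0.03 ± 0.07 with BMP2.

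Smad5 was at 14.6 ± 0.35 FPKM in the library labelled shKSRP, 15.8 ± 0.50 in the BMP2 library and 13.6 ± 0.42 in mock. The intervals did not overlap, but the log2 ratios to mock were small, at 0.09 ± 0.05 in the library labelled shKSRP and 0.20 ± 0.06 with BMP2. Smad4 was at 25.1 ± 0.70 FPKM in the library labelled shKSRP, 21.1 ± 0.68 in the BMP2 library and 27.3 ± 1.09 in mock. The BMP2 library was lowest, with a log2 ratio to mock of −0.36 ± 0.07, and the library labelled shKSRP was at −0.12 ± 0.07. Smad9, the remaining SMAD of this class, was at 1.86 FPKM in the library labelled shKSRP, 5.43 in the BMP2 library and 2.58 in mock, with log2 ratios to mock of −0.32 in the library labelled shKSRP and 0.85 with BMP2. The SMAD ratios turned on the assembled transcripts: with RefSeq transcripts alone the ratio of Smad4 was 2.20 in the library labelled shKSRP and 1.95 with BMP2. That of Smad1 was then 1.03 in the library labelled shKSRP and 1.19 with BMP2, and that of Smad5 2.25 in the library labelled shKSRP and 0.83 with BMP2.

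These gene sums hide levels that differ along the transcripts as they were assembled. Each transcript carries a single FPKM along its length, so the levels below restate the assembly and are not read coverage. In Acvr1 and Smad5, exons of RefSeq forms listed at 0 lie before the midpoint and raise the ratio given below in every library. Over the first 312 nt of Smad4 the transcripts that cover each base summed to 19.3 FPKM in the library labelled shKSRP, 16.1 in the BMP2 library and 3.41 in mock, and over the last 1596 nt to 25.1 FPKM in the library labelled shKSRP, 21.1 with BMP2 and 27.3 in mock. In mock 19.5 FPKM, 71.4% of Smad4, lay on an assembled transcript of 3 exons at the 3′ end. The mean level beyond the midpoint of the longest RefSeq transcript over that before it gave 1.23 in the library labelled shKSRP, 1.20 in the BMP2 library and 3.79 in mock for Smad4. For Bmp1 it gave 0.837 in the library labelled shKSRP, 0.873 with BMP2 and 1.95 in mock. For Acvr1 it gave 1.403 in the library labelled shKSRP, 1.41 with BMP2 and 2.29 in mock. Smad5 differed from these, with 1.15 in the library labelled shKSRP, 1.74 in the BMP2 library and 1.36 in mock. In the BMP2 library 11.0 FPKM of Smad5 lay on a single-exon 3′ piece of 5172 nt, and in mock 11.3 FPKM lay on an assembled transcript of 6 exons.

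Over all genes the libraries differed in the same measure. Of 4639 to 4647 genes at 5 FPKM or more in every library and 2000 nt or more in length, the level beyond the midpoint was at least 2 times that before it in 1.51% in the library labelled shKSRP, 5.51% in the BMP2 library and 10.002% in mock. Restricted to the bases before the midpoint, Smad4 was called higher than mock in both libraries, and Bmp1 in the BMP2 library. These calls follow from the same assignment of FPKM to transcripts and are not a separate measurement. The part of RNA integrity or assembly in these ratios was not tested.

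**Figure D2:**
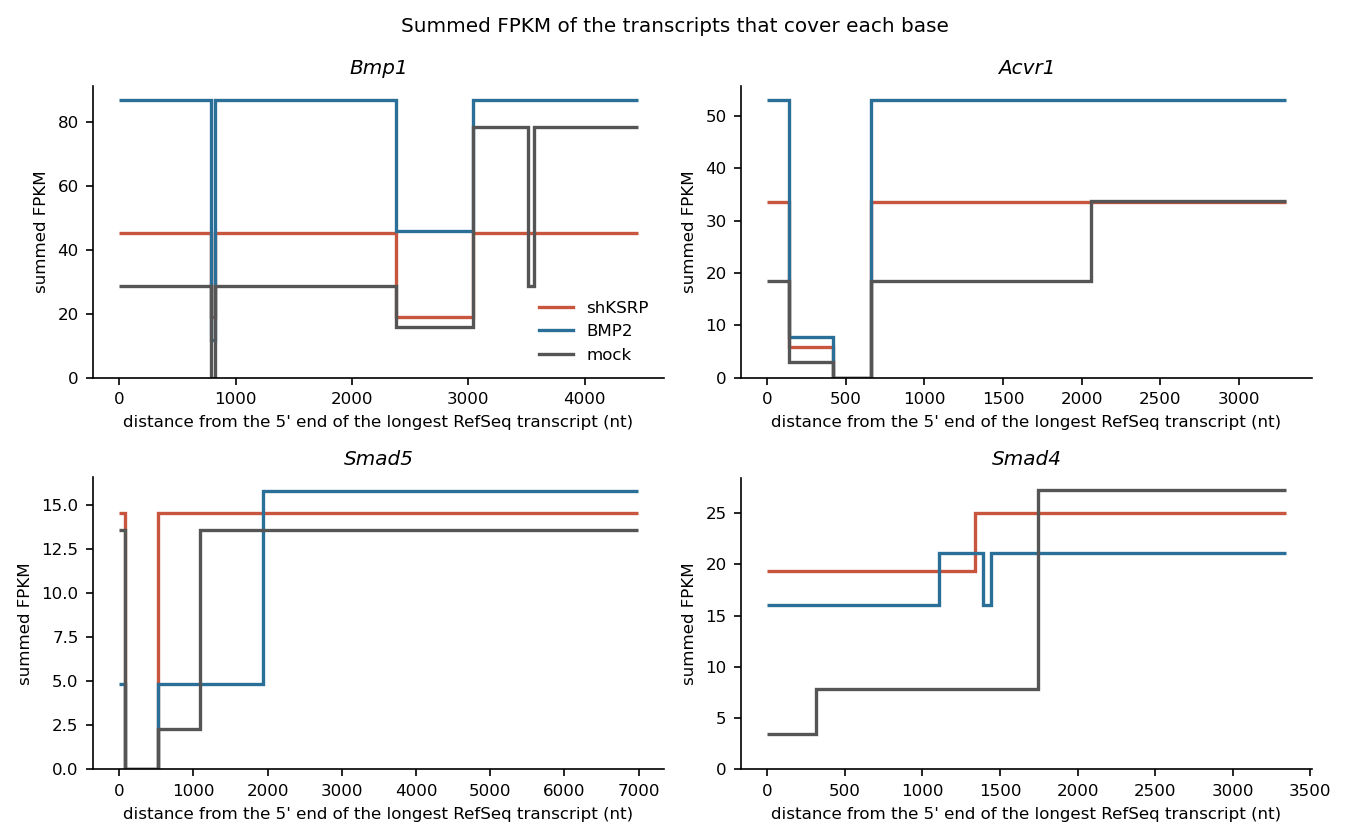
Summed FPKM of the transcripts covering each base (vertical axes) along the longest RefSeq transcript of Bmp1, Acvr1, Smad5 and Smad4 (horizontal axes, distance from the 5′ end in nt), 1 line a library; stretches at or near 0 are segments of other RefSeq forms. In mock the line of Smad4 stands at 3.41 to 7.80 FPKM before the last 1596 nt and at 27.3 after, and that of Acvr1 steps from 18.4 up to 33.8.

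Set directly against each other, the library labelled shKSRP and the BMP2 library had no call among the 9 genes in either direction, where 6.06% of all genes were called higher in the library labelled shKSRP and 8.65% lower. The median log2 ratio of the 9 genes was −0.11 and that of all genes −0.02. Bmp1 (−0.93 ± 0.04), Bmp4 (−0.69 ± 0.11) and Acvr1 (−0.65 ± 0.05) were lower in the library labelled shKSRP. Bmpr1a and Bmpr2 were close to equal, at 0.03 ± 0.06 and 0.09 ± 0.04. Across the alternative settings the ratio of Bmpr1a ran from −0.17 to 1.03. Smad1, Smad5 and Smad4 were at −0.16, −0.11 and 0.24.

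Genes around these 10 are given by list. Of 13 secreted antagonists and modulators tested, 3 were called higher than mock in the library labelled shKSRP (Chrdl1 and Bmper among them) and none lower. The shares over all genes tested were 11.0% higher and 12.9% lower. In the BMP2 library 5 were called higher (Nog, Chrd, Fst and Fstl1 among them) and none lower. There the shares over all genes were 9.21% and 8.95%. The median log2 ratio to mock of the list was 0.05 in the library labelled shKSRP and 0.92 with BMP2. With the length trend taken out, Fst (1.08) was also called higher and Chrd was called lower in the library labelled shKSRP. Nog, which codes for the BMP trap noggin, was at 0.978 FPKM in the library labelled shKSRP, 8.26 in the BMP2 library and 1.63 in mock. Chrd, which codes for chordin, the substrate of Bmp1, was at 0.810 FPKM in the library labelled shKSRP, 7.90 with BMP2 and 2.40 in mock. Bmper, a BMP-binding modulator, was at 34.7 FPKM in the library labelled shKSRP, 7.85 with BMP2 and 13.1 in mock, and Chrdl1, a chordin-like gene, at 1.61 FPKM in the library labelled shKSRP, 0.144 with BMP2 and 0.102 in mock. The most abundant gene of the list, Fstl1, was at 223 FPKM in the library labelled shKSRP, 459 with BMP2 and 162 in mock, and Fst, which codes for the activin trap follistatin, at 20.6 FPKM in the library labelled shKSRP, 32.8 with BMP2 and 9.96 in mock.

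Among other receptors and co-receptors 6 of 9 matched genes were tested. Neo1, which codes for neogenin, a receptor of the BMP co-receptors of the RGM family, was at 28.3 FPKM in the library labelled shKSRP, 26.5 in the BMP2 library and 6.63 in mock, and was called higher in the library labelled shKSRP (log2 ratio 1.94) and with BMP2 (1.85). Eng, a co-receptor best known from endothelium, was at 1.59 FPKM in the library labelled shKSRP and listed at 0 in the BMP2 library and in mock. Its difference rests on those entries of 0. No gene of this list was called lower, where 12.9% of all genes were in the library labelled shKSRP and 8.95% with BMP2. Its median log2 ratio was 0.63 in the library labelled shKSRP and 0.14 with BMP2.

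All 20 intracellular regulators of receptors and SMADs were tested. In the library labelled shKSRP 1 was called higher than mock, Ski, where 11.0% of all genes were, and 1 lower, Smurf2, where 12.9% were. In the BMP2 library 5 were called higher (Bambi, Smad6, Smurf2, Ski and Hipk2), where 9.21% of all genes were. There 1 was called lower (Nedd4l), where 8.95% were. Over a fixed length Nedd4l was at −0.37 with BMP2 and its call was lost, and with the length trend taken out Hipk2 was at 0.90 and lost its call. In the library labelled shKSRP the length setting added calls, Hipk2 higher at 1.64 over a fixed length and Nedd4l lower at −1.05 with the trend taken out. Smad6, an inhibitory SMAD, was at 18.1 FPKM in the library labelled shKSRP, 102 in the BMP2 library and 13.2 in mock. Ski, a SMAD co-repressor, was at 36.0 FPKM in the library labelled shKSRP, 36.7 with BMP2 and 12.7 in mock. Smurf2, a ubiquitin ligase for receptors and SMADs, was listed at 0 in the library labelled shKSRP and was at 28.0 FPKM in the BMP2 library and 10.02 in mock, so its call in the library labelled shKSRP rests on the entry of 0. The median log2 ratio of the list was 0.11 in the library labelled shKSRP and 0.40 with BMP2, or −0.12 in the library labelled shKSRP and 0.21 with BMP2 with the length trend taken out. Bambi, a decoy receptor, was at 0.099 FPKM in the library labelled shKSRP, 2.24 with BMP2 and 0.377 in mock, the kinase gene Hipk2 at 2.22 FPKM in the library labelled shKSRP, 4.99 with BMP2 and 1.89 in mock, and the ubiquitin ligase gene Nedd4l at 9.49 FPKM in the library labelled shKSRP, 6.64 with BMP2 and 14.4 in mock. Fkbp1a, which binds type I receptors and shares its locus with another gene, was the most abundant at 226 FPKM in the library labelled shKSRP, 286 with BMP2 and 371 in mock.

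The targets of BMP signalling include the Id genes, which code for inhibitors of myogenic transcription factors. Of 15 targets tested, the library labelled shKSRP had none called higher than mock and 4 called lower (Id1, Id2, Dlx3 and Atoh8). With the length trend taken out 2 stayed called, as Id1 was at −0.97 and Id2 at −0.75, and with fragments over a fixed length Atoh8 was at −0.89, which left 3. The BMP2 library had 7 called higher (Id4, Smad6, Hey1, Sp7, Atoh8, Nog and Bambi) and none lower, of which Atoh8 was at 0.99 over a fixed length. Over all genes tested 11.0% were called higher and 12.9% lower than mock in the library labelled shKSRP, and 9.21% and 8.95% in the BMP2 library. With the length trend taken out 1315 of 11462 were called lower in the library labelled shKSRP. The median log2 ratio of the list was −0.41 in the library labelled shKSRP and 0.88 with BMP2. It was −0.22 in the library labelled shKSRP and 0.94 with BMP2 with the length trend taken out. Set against the BMP2 library, the library labelled shKSRP had 12 of the 15 called lower and none higher. Of all genes 8.65% were called lower there and 6.06% higher. With the length trend taken out 11 of the 15 stayed lower, as Id1 was at −0.88, and 973 of all 11462 genes were lower. Id1 was at 104 FPKM in the library labelled shKSRP, 212 in the BMP2 library and 289 in mock, and Id2 at 33.3 FPKM in the library labelled shKSRP, 106 with BMP2 and 76.3 in mock. Id3, the most abundant, was at 323 FPKM in the library labelled shKSRP, 732 with BMP2 and 489 in mock and was not called against mock. Atoh8 was at 22.8 FPKM in the library labelled shKSRP, 115 with BMP2 and 54.4 in mock, Dlx3 at 4.03 FPKM in the library labelled shKSRP, 20.1 with BMP2 and 14.6 in mock, and Id4 at 0.167 FPKM in the library labelled shKSRP, 5.34 with BMP2 and 1.31 in mock. The osteoblast factor gene Sp7 was at 0.527 FPKM in the library labelled shKSRP, 8.12 with BMP2 and 0.187 in mock, and Hey1 at 7.38 FPKM in the library labelled shKSRP, 51.4 with BMP2 and 6.05 in mock. Smad6, Nog and Bambi are on this list and also on one above.

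**Figure D3:**
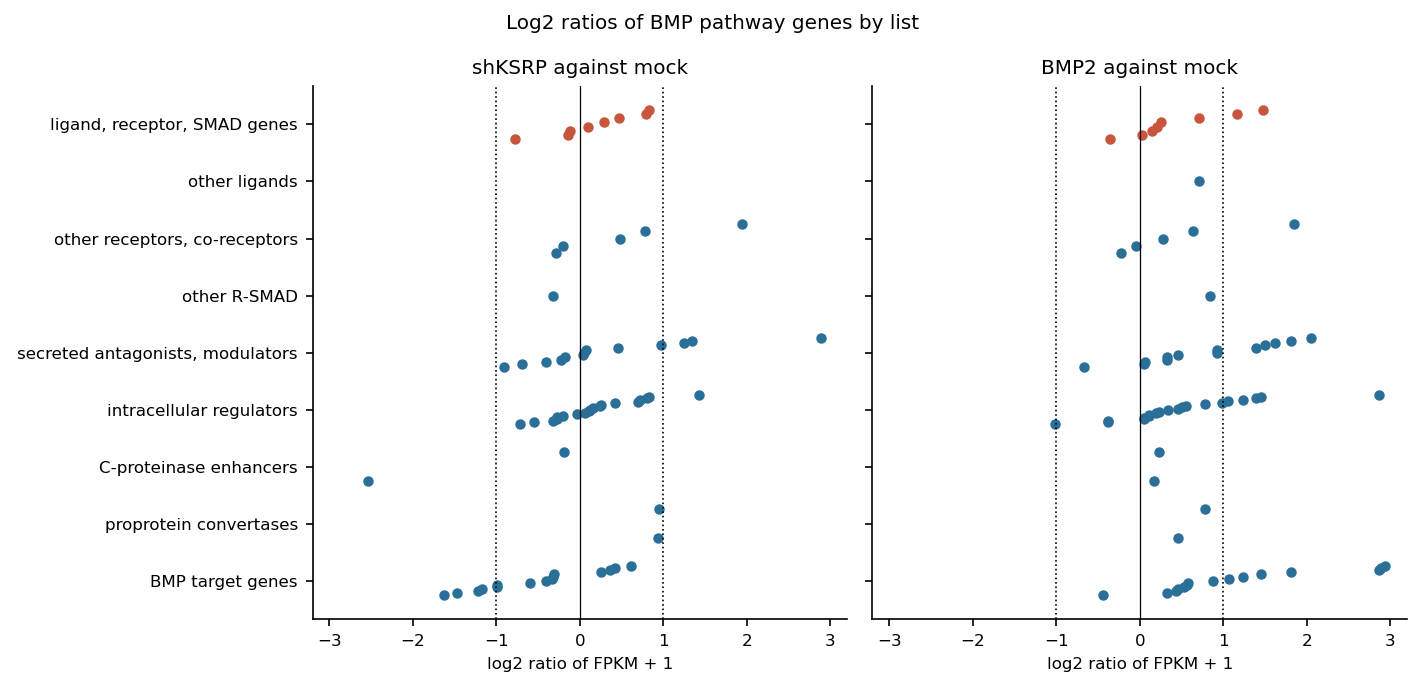
Log2 ratio of FPKM + 1 (horizontal axes) of each tested gene of the 9 groups, in the library labelled shKSRP against mock (left) and the BMP2 library against mock (right), 1 point a gene and dotted lines at −1 and 1; genes listed at 0 in either library are left out. The ligand, receptor and SMAD genes (red) lie between −0.78 and 0.83 on the left and between −0.36 and 1.48 on the right, while BMP targets reach −1.63 on the left and 2.94 on the right.

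The genes most like each member in the 2 log2 ratios to mock were sought among 4439 genes at 10 FPKM or more in every library, by Euclidean distance over 3 libraries. Nearest to Bmp4 were Lox, Acly and Plcd1 (Lox at a distance of 0.08), and nearest to Acvr1 were Tgfb1, Malat1 and Shoc2 (Tgfb1 at 0.07). Nearest to Bmp1 were Dad1, Echdc2 and Dexi, to Bmpr1a Spin1, Ip6k2 and Tspyl2, and among the nearest to Bmpr2 were Pip5k1a and Pld3. Nearest to Smad1 were Nfe2l2, Rnf166 and Preb, to Smad5 Hagh, Ppm1m and Blmh, and to Smad4 Csf1, Cetn3 and Drg1. The farthest of these, Plcd1, lay at 0.10. For Acvr2a, listed at 0 in mock, the nearest, Mbnl1, lay at 0.59, before Palld and Aebp1, and for the near-silent Acvrl1 the order of Cttn, Pgrmc1 and Pafah1b2 has little meaning.

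**Figure D4:**
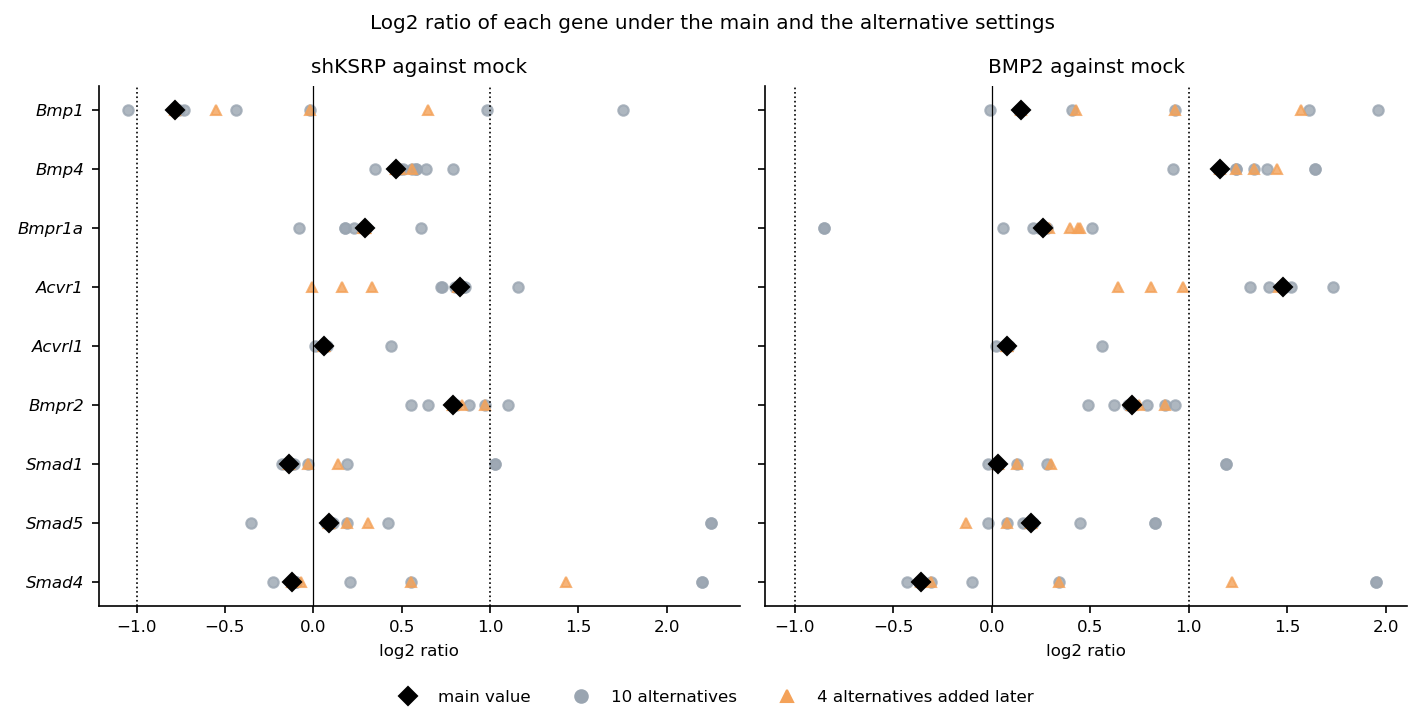
Log2 ratio (horizontal axes) of 9 genes in the library labelled shKSRP against mock (left) and the BMP2 library against mock (right), as reported (diamonds), under 10 alternatives (circles) and under 4 added after the data were seen (triangles), with dotted lines at −1 and 1; Acvr2a and the settings in which Bmpr2 is listed at 0 are left out. Bmp4 stays between 0.92 and 1.64 in the BMP2 library, while Bmp1 in the library labelled shKSRP spreads from −1.05 to 1.75 and Smad4 from −0.23 to 2.20.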

How the data were processed

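Per the labels' protocols, poly(A) RNA was selected in 2 rounds on oligo(dT) beads, cDNA of 250 ± 25 bp was amplified for 18 cycles, and an Illumina HiSeq instrument read the libraries. The labels name no molecular identifiers, and intervals cover counting and assignment error only. The tools in the submitters' processing notes are Cufflinks 1.3.0, TopHat 1.4.1, Bowtie 0.12.7 and CASAVA 1.8, with build mm9 (options: not given in the sources used here). The authors deposited, for each library, Cufflinks transcripts with FPKM and its 95% bounds, and a deposited score per transcript that was not used. Each library has its own assembly beside the same 28702 RefSeq transcripts.

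Here a gene's FPKM was the sum over its RefSeq transcripts and the assembled transcripts of its Cufflinks locus, and the distances to the upper bounds were combined as a root sum of squares for the ±. RefSeq accessions were turned into symbols with the RefSeq gene table (27563 of 28222). The 11462 genes with a longest RefSeq transcript of 300 nt or more and at least 1 FPKM in some library were compared by log2 ratio with a pseudocount of 1 FPKM. A log2 ratio of 1 in size counted as a call. Fragment numbers take the bounds as 2 standard errors of a Poisson count. The calls and the removal of the trend on the longest RefSeq length (lowess, statsmodels 0.14.6) were tested on simulated data. In all, 10 alternative settings were listed and 4 were added after the data were seen. Named genes are all 10 members, every gene of the other lists called against mock, and the most abundant gene of each list. A few genes that this rule takes in are not reported here. The members and lists were chosen with earlier results of these data known.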

Additional observations from a re-analysis of the deposited data

How the results depend on the processing

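Leaving Acvr2a and Acvrl1 aside, the 8 other genes gave 112 values a comparison over 14 alternatives. The sign held in 94 for the library labelled shKSRP to mock and in 99 for the BMP2 library to mock. With those libraries set against each other it held in 100. Not every setting could change a sign. Another pseudocount (0.1 or 5 FPKM) or no filter on low values cannot, so their values kept it by construction. Requiring exon overlap returned the reported ratios for these genes. The counts therefore overstate how far the signs were tested. With RefSeq transcripts alone, of 8 members tested 5 were called higher in the library labelled shKSRP than in mock (Bmp1, Acvr2a, Smad1, Smad5 and Smad4), where 1879 of 10384 genes were. In the BMP2 library 6 were called higher than in mock (Bmp1, Bmp4, Acvr1, Acvr2a, Smad1 and Smad4), where 1509 of 10384 genes were. Between the library labelled shKSRP and the BMP2 library 2 were then higher (Bmpr1a and Smad5) and 1 lower (Bmp4), with 1162 genes higher and 1069 lower over all. With the most abundant RefSeq transcript the counts were 4, 6, 2 and 1, where over all 10342 genes they were 1842, 1505, 1129 and 1054. These settings drop the assembled transcripts, on which the level of Bmpr2 lies in every library. With a pseudocount of 5 FPKM, 1 member (Acvr1) was called higher in the BMP2 library than in mock. Over all genes that pseudocount gave 605 higher (1264 as reported) and 909 lower (1483) in the library labelled shKSRP against mock, 540 (1056) and 628 (1026) in the BMP2 library against mock, and 335 (695) and 513 (992) in the library labelled shKSRP against the BMP2 library. Equal FPKM totals moved the median of all genes to 0.27 in the library labelled shKSRP against mock and to 0.26 in the BMP2 library, with 2029 higher and 943 lower in the library labelled shKSRP against mock and 3 members there higher (Acvr1, Bmpr2 and Acvr2a). With the length trend taken out, 1 member, Bmp1, was lower in the library labelled shKSRP than in mock, where 1315 of 11462 genes were. Likewise 1, Bmp1, was lower there than in the BMP2 library, where 973 genes were. Over the bases before the midpoint, 2 members (Acvr2a and Smad4) were higher in the library labelled shKSRP than in mock and 5 (Bmp1, Bmp4, Acvr1, Acvr2a and Smad4) in the BMP2 library. The share of all genes called in that setting is not given here, so these counts cannot be weighed against it. The median log2 ratio of all genes to mock in that setting was 0.10 in the library labelled shKSRP and 0.08 with BMP2. That of the 9 members was 0.65 in the library labelled shKSRP and 1.22 with BMP2.

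Leaving out a replicate is not possible with 1 library a group. No paired analysis was possible because each group holds 1 library. Values near or below the filter, such as those of Acvrl1, rest on too few fragments for a ratio.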
